A study of Mus musculus with 19 samples.

Results

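The members described here are the genes of extracellular proteolysis: the matrix metalloproteases, the ADAM and ADAMTS proteases, the tissue inhibitors of metalloproteases (TIMPs), the plasminogen activators with the urokinase receptor, and the serpins. They were taken as every probe set of the array whose single annotated gene symbol begins with Mmp, Adam, Adamts or Timp and a number, or with Serpin or Plau, or is Plat. This gave 74 probe sets of 59 genes, out of 12488 probe sets in all. The rule reads symbols alone, and the group was chosen with earlier results of these data known. Of the 74, 60 probe sets of 49 genes rose above a floor on low values often enough to be tested, and 14 did not. A further 6 probe sets carry such a symbol together with others and were not counted as members.

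Matrix metalloproteases are zinc enzymes that cut collagens, laminins, proteoglycans and cell surface proteins. ADAM proteases are their membrane-bound relatives, which shed growth factors, receptors and adhesion molecules from cells, and several ADAM proteins have lost the catalytic site and act in adhesion. TIMPs bind and block the active site of these enzymes. The plasminogen activators are serine proteases that turn plasminogen into plasmin, and serpins are suicide inhibitors, mostly of serine proteases, although some serpins inhibit nothing and serve as hormone carriers or chaperones. Neural crest cells cross and remodel matrix as they migrate, and Schwann cells later build a basal lamina, so both sides of this balance have been studied in peripheral glia.

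RNA was measured in sorted green fluorescent cells of a transgenic mouse line on 19 Affymetrix arrays, and all groups carry the same transgene. The reporter protein is driven by the proteolipid protein gene (Plp) promoter, which marks neural crest stem cells and the glia that come from them, so each group holds whatever cells had that promoter active and passed the sort. The groups were trunk at embryonic day 9.5 (E9.5, 3 arrays) and sciatic nerve at E12 (3 arrays), E14 (3 arrays), E16 (4 arrays), E18 (3 arrays) and the day of birth (P0, 3 arrays). Between E9.5 and E12 both the age and the body region changed, and their parts cannot be told apart. Whether arrays of 1 stage stand for separate animals or litters is not in the labels, and p-values here cover the spread between these arrays alone, which may be technical.

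The sort was checked against marker genes. The glial genes Sox10 and Erbb3 were above the floor on all 19 arrays, at 727 to 3256 for Sox10 and 1589 to 5097 for Erbb3. The summed index of 14 glial genes was 7178 to 8299 at E9.5, 20495 to 24754 at E12 and 18379 to 35028 at P0. That list did not move as 1: at P0 against E12, 5 genes were higher (Pmp22, Mbp, Mal, Pou3f1 and Egr2) and 4 lower (Fabp7, Gap43, Gfra3 and Cdh2). S100b was listed at 0 on all 3 E9.5 arrays, and its highest index was 148.6, at P0. Markers of other cells moved too. The summed index of 19 fibroblast genes was 3066 to 4022 at E9.5, 13645 to 16367 at E12, 20649 to 28142 at E14, then 28974 to 36391 at E16, 27891 to 33013 at E18 and 24184 to 31777 at P0. Among 18 tested genes of that list, 5 were higher and 1 lower at E12 than at E9.5, led by the collagen gene Col3a1 and by Postn, while Prrx1 was below the floor on every array and the highest Lum index outside E16 was 157. E16 replicate 2 stood apart, with Dcn at 3395, Mfap5 at 1018 and Lum at 251, against 123 to 357, 66.5 to 100.3 and 53.5 to 83.4 on the other E16 arrays. The summed index of 20 macrophage genes was 4389 to 7776 at E12, against 3013 to 3773 at E9.5, with 7 of 18 tested genes higher, Lyz2 and Fcer1g below the floor on every array and Ctss at 1719, 850 and 222 on the E12 arrays. The summed index of 9 erythroid genes was 3420 to 11246 at E12, against 2047 to 2289 at E9.5, with 4 of 9 tested genes higher, among them the embryonic globin Hbb-y (11.1-fold, adjusted p = 7.94e-04). It was 2072 to 2461 at P0, with 3 of the 9 lower than at E12. The part of these cells in the changes of the members was not tested. The ratio of the 3' to the 5' signal of the GAPDH control is a sign of how far the RNA was shortened. It was 2.33 to 3.41 at E9.5, 3.18 to 4.53 at E12 and 5.1 to 6.23 at E14. At E16 it was 3.84 to 9.12, highest on replicate 2, at E18 4.11 to 4.83 and at P0 4.69 to 7.69. In such bulk samples fewer cells of a type and less RNA per cell cannot be told apart.

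The stretches before the start sites of the genes that carry the findings are shown first. The 250 bases before each start were taken from RefSeq (GRCm38.p6), where 40 of the 59 member genes were matched, with 46 windows in all. The first 4 below belong to genes that were higher at E12 than at E9.5 (Timp3, Timp2, Mmp14 and Adam19), the next to Serpinf1, which fell within the nerve, and the last to Mmp3, a protease with the classical promoter motif of the family that was called in no comparison. Capitals mark letters on either strand that match 1 of 4 motifs: the AP-1 motif TGANTCA, the GC box GGGCGG, the SOX motif ACAAAG and the TATA box TATAAA.
Timp3: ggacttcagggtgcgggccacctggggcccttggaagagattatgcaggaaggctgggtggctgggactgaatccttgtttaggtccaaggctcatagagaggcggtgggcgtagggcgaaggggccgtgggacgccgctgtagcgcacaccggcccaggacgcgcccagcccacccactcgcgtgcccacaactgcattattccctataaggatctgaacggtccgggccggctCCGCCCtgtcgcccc
Timp2: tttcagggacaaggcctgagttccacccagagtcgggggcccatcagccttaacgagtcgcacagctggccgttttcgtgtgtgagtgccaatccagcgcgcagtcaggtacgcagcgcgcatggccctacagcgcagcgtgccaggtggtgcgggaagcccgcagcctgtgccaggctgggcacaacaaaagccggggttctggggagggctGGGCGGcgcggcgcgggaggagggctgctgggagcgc
Mmp14: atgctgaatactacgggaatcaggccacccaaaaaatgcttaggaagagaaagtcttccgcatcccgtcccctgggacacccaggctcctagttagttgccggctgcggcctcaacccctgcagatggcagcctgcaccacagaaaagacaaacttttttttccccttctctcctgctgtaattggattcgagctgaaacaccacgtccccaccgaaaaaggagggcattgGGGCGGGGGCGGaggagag
Adam19: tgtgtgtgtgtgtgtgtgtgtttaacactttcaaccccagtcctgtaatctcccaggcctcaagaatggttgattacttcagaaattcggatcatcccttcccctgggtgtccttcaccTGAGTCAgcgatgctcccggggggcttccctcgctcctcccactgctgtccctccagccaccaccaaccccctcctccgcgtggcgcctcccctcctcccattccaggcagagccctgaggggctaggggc
Serpinf1: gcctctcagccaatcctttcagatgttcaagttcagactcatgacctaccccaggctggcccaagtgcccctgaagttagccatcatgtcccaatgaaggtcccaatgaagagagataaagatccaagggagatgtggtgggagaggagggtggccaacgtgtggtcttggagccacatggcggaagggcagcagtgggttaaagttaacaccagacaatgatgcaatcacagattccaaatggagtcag
Mmp3: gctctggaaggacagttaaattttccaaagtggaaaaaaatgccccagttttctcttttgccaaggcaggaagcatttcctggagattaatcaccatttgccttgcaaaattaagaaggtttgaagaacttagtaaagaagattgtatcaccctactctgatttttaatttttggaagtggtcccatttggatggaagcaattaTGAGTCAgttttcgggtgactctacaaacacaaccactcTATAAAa
These windows lie at chr10:86300162-86300411 (plus strand, Timp3), chr11:118355412-118355661 (minus strand, Timp2), chr14:54431348-54431597 (plus strand, Mmp14), chr11:46055734-46055983 (plus strand, Adam19, window 2 of 3), chr11:75422624-75422873 (minus strand, Serpinf1) and chr9:7445572-7445821 (plus strand, Mmp3). The Timp3, Timp2 and Mmp14 windows hold GC boxes at -15, at -37 and at -19 and -13, counted from the start site, and the 2 of Mmp14 are back to back. The Adam19 window shown holds an AP-1 motif at -131, while windows 1 and 3 of that gene hold none of the searched motifs. That of Mmp3 has an AP-1 motif at -46 and a TATA box at -7. No searched motif is found in the Serpinf1 window.

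Among the 46 member windows, 26.1% hold the AP-1 motif, 37% the GC box, 28.3% the SOX motif and 17.4% the TATA box. Across all 32851 windows of the table, 6.75% hold the AP-1 motif, 32.7% the GC box, 16.5% the SOX motif and 12.4% the TATA box. The 12 windows with an AP-1 motif belong to 11 genes, and 5 of these lie on chromosome 9 (Mmp3, Mmp7, Mmp10, Mmp12 and Mmp13). Both Serpinb2 windows overlap, and those of Serpina1b and Serpina1c are alike over much of their length, so they are not separate cases. Only 2 of the 11 genes, Adam19 and Serpina1c, had a probe set called in any comparison below. Of the 13 genes that rose at E12, 8 had a window (11 windows), of which 1 holds the AP-1 motif, 4 the GC box, 2 the SOX motif and 0 the TATA box. These matches describe letters, not binding.

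Between trunk crest at E9.5 and nerve at E12, 2 inhibitors, 3 metalloproteases, 5 ADAM genes and 3 serpins were higher at E12 and none was lower. Timp3 was 10.4-fold, Adam19 4.16-fold and Mmp14 3.58-fold higher, and Timp2 was listed at 0 at E9.5. Where E9.5 arrays lay at the floor a change is a lower bound, so the members cannot be ranked by size. Values are the authors' expression index, a linear intensity. They were set to a floor of 68.5 where lower, put on a log2 scale and compared in 1 linear model (limma), and a probe set is said to be called where its Benjamini-Hochberg adjusted p over all 10414 tested probe sets of a comparison is under 0.05. At E12 against E9.5, 13 of the 60 member probe sets were called, or 21.7%, against 14.1% of all tested probe sets. All 13 were higher at E12 (9.7% of all probe sets were called higher) and 0 were lower (4.41% of all; by unadjusted p under 0.05, 1 member was lower). Without E9.5 replicate 2 the count was 8. Adam12, Mmp16, Serpini1 and the called Mmp2 probe set reached the test only through their E12 arrays, and all their E9.5 arrays were at the floor. The called Timp2 probe set was also at the floor on all E9.5 arrays. For these genes a call could only be higher at E12, so the count and its direction depend in part on the floor and filter. How many of all probe sets share this limit was not counted. The median log2 change of the members was 0.16, and that of all probe sets 0.01.

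Within the nerve, the changes were fewer and ran both ways. Timp2 went on rising, while Adam12, Mmp16, Serpini1 and Serpinf1, above the floor on all E12 arrays, fell. Adam12, Mmp16, Serpini1 and the called Mmp2 probe set passed the filter on low values only through E12. Their calls in comparisons with E12 are thus not independent of that filter. At E14 against E12, 5 members were called (8.33%, against 2.09% of all), 1 higher (1.08% of all) and 4 lower (1.02% of all). At E16 against E14, 2 were called (3.33%, against 1.69% of all): Timp2 higher (0.586% of all) and Serpinf1 lower (1.1% of all). At E18 against E16, limma called 0 members, higher or lower (0.0768% of all, 0.0096% higher and 0.0672% lower), with 9 at an unadjusted p under 0.05, and limma with array weights called 7. At P0 against E18 it called 0 (0.125% of all, 0.0384% higher and 0.0864% lower), with 8 at an unadjusted p under 0.05, and array weights called 6. P0 replicate 4 bears on that last count. Without it 6 members were called, among 6.87% of all probe sets. Of these, Serpinh1 fell by 1.60 on the log2 scale, Adam19 by 1.19 and Serpinb6a by 0.62 (adjusted p = 0.0161, 0.0209 and 0.0282). Serpina3n rose by 0.97, Serpina1c by 0.79 and Serpina6 by 0.79 (adjusted p = 0.0058, 0.0212 and 0.0431).

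From the first to the last nerve stage, P0 against E12, 10 members were called (16.7%), close to the 16.4% of all probe sets. Higher at P0 were Timp2, Serpina1c, Serpina1e and Serpinb9 (4.53% of all probe sets were called higher), and lower were Serpinf1, Adam12, Adam19, Mmp16, Serpini1 and Mmp2 (11.8% of all were called lower). The comparisons against E12 share the E12 arrays, so the falls at E14 and at P0 and the rise at E12 are not separate evidence. Over the 5 nerve stages 9 members varied by a moderated F-test (15%, against 13.1% of all), and over all 6 stages 20 did (33.3%, against 29% of all). In total 17 probe sets of 17 genes were called in 1 or more comparisons and 43 in none. The share of all probe sets called in 1 or more comparisons was not counted, so this total is a description only. Those 17 gave 30 called changes. In 16 of them 1 or more arrays of the lower stage were at the floor, and their folds are lower bounds.

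**Figure D1:**
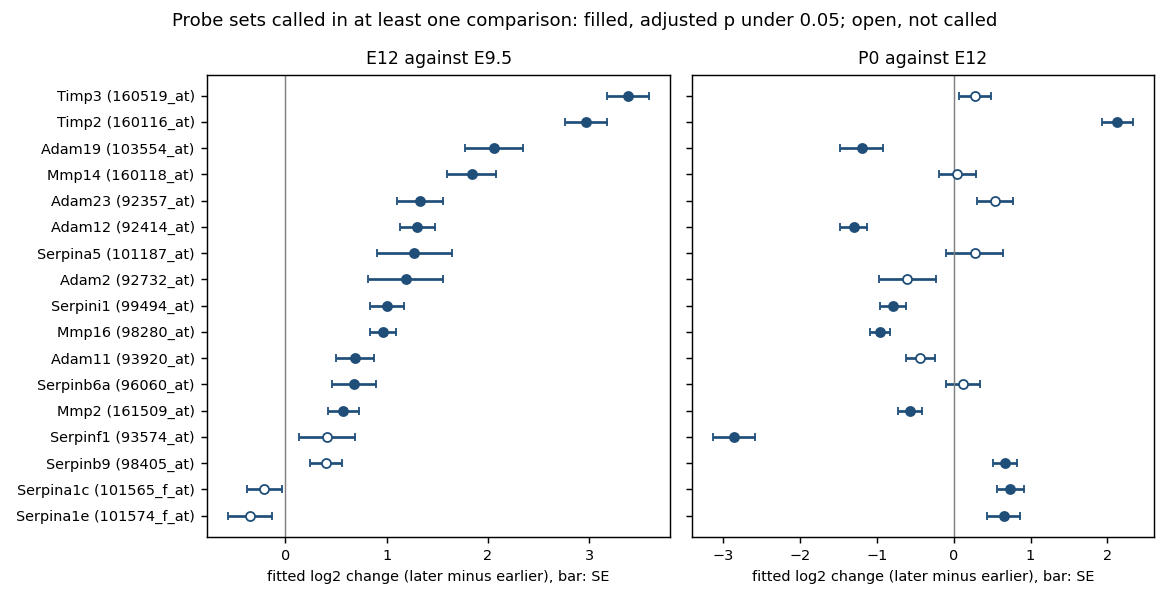
Fitted log2 change (later minus earlier stage, points) with its standard error (bars) for the 17 probe sets called in 1 or more comparisons, at E12 against E9.5 (left) and at P0 against E12 (right). Filled points passed an adjusted p of 0.05, and all 13 filled points on the left lie above 0, while on the right 4 lie above and 6 below.

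Of the matrix metalloproteases, 13 probe sets of 10 genes were tested, and 3 rose at E12: Mmp14, Mmp16 and Mmp2. Mmp14 is a membrane-bound collagenase that also activates the Mmp2 precursor at the cell surface. Its index was 509, 514 and 666 at E9.5, 1804, 1931 and 2287 at E12, 1509.7, 2261 and 1707 at E14, then 1239, 1459.9, 1599 and 2417 at E16, 2036, 1944 and 1622 at E18 and 1577, 2056 and 2698 at P0. Every nerve array lay above every trunk array, and the nerve stages overlapped. Mmp14 averaged 2007 ± 250.2 at E12, against 563 ± 89.7 at E9.5 (SD, n = 3 each), a 3.58-fold rise (log2 change 1.84, SE 0.24, adjusted p = 5.91e-05). No later step was called, with a log2 change of 0.04 (SE 0.24, adjusted p = 0.94) at P0 against E12.

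Mmp16, another membrane-type enzyme, was seen above the floor at E12 and on a single E14 array. It entered the test through E12, where it is high, and its p-values hold little spread from the other stages. Its mean index was 22.9 ± 18.99 at E9.5, 134 ± 19.3 at E12, 53.9 ± 28.7 at E14, then 27.98 ± 4.97 at E16 (n = 4), 16.8 ± 4.44 at E18 and 13.0 ± 15.4 at P0 (SD, n = 3 elsewhere). It was at least 1.95-fold higher at E12 than at E9.5 (adjusted p = 5.91e-05), at least 1.80-fold lower at E14 than at E12 (adjusted p = 9.11e-04) and at least 1.95-fold lower at P0 than at E12 (adjusted p = 6.64e-05). How large these changes are depends on the floor: with a floor at the 10th percentile the log2 changes were 2.09, -1.43 and -2.27, against 0.96, -0.85 and -0.96.

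Mmp2, the gelatinase that Mmp14 activates, has 2 tested probe sets, which did not move together. Probe set 161509_at averaged 104 ± 27.7 at E12, against 28.2 ± 6.22 at E9.5, and was at least 1.49-fold higher (log2 change 0.57, SE 0.15, adjusted p = 0.0182). It averaged 49.8 ± 18.7 at P0, at least 1.49-fold lower than at E12 (adjusted p = 0.017). All E9.5 and P0 arrays of this probe set hold the floor value, which makes the bounds equal. The SE and p-values thus hold no spread from those stages. Leaving out an array took the E12 rise past the threshold in 3 cases (adjusted p = 0.0503 without E9.5 replicate 1, 0.0538 without E9.5 replicate 2 and 0.11 without E12 replicate 1, where the log2 change was 0.36), and the fall at P0 in 1 (adjusted p = 0.0914 without E12 replicate 1, log2 change -0.36). Without the lot 1 arrays of E16 and P0 the fall had an adjusted p of 0.0525. Probe set 95663_at averaged 88.4 ± 15.3 at E12 and 102 ± 17.1 at E9.5, and was not called in any comparison (log2 change -0.20, SE 0.22, adjusted p = 0.647 at E12 against E9.5).

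The other tested members of the family (Mmp3, Mmp7, Mmp8, Mmp9, Mmp10, Mmp12 and Mmp24) were called in no comparison. They include the stromelysins Mmp3 and Mmp10 and the inflammatory proteases Mmp8, Mmp9 and Mmp12, which leukocytes make. The lowest adjusted p among them was 0.0902, for Mmp9 probe set 162369_f_at at E12 against E9.5 (log2 change -0.65, SE 0.24). Mmp11, Mmp13 and Mmp17 were too low to test, with highest indices of 42.8, 20.8 and 66.6.

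**Figure D2:**
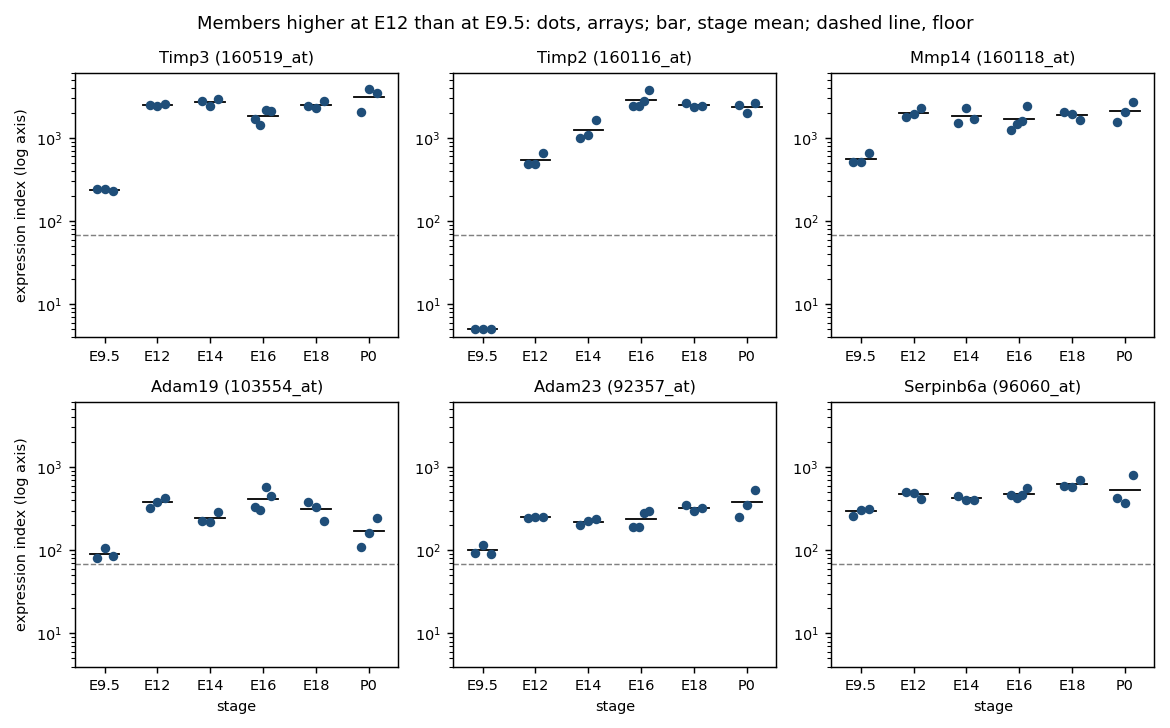
Expression index (log axis) on each array (dots) by stage for 6 probe sets called higher at E12 than at E9.5, with the stage mean (bar) and the floor of 68.5 (dashed line). Values under 5 are drawn at 5, which applies to Timp2 at E9.5, listed at 0 on 3 arrays, and in each panel the E12 dots lie above the E9.5 dots.

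Of the inhibitors, Timp3 and Timp2 were called and Timp1 was not. Timp3, the TIMP that stays bound to matrix and also inhibits ADAM proteases, had an index of 242, 243 and 231 at E9.5, 2469, 2433 and 2557 at E12, 2744, 2397 and 2971 at E14, then 1697, 1428, 2168 and 2113 at E16, 2396, 2307 and 2752 at E18 and 2039, 3869 and 3473 at P0. The 3 trunk arrays lie within 12 units of each other and all nerve arrays are several times above them. Timp3 averaged 2486 ± 63.8 at E12, against 239 ± 6.501 at E9.5 (SD, n = 3 each), a 10.4-fold rise (log2 change 3.38, SE 0.21, adjusted p = 1.03e-08). Samples carry a lot number in the labels, and the rise was 3.35 within lot 1 and 3.32 within lot 2 on the log2 scale. Each of these values sets 1 array against 1. Nothing after E12 was called for Timp3. The 4 E16 arrays all lay below the 3 E14 and the 3 E18 arrays, with a log2 change of -0.56 (SE 0.19, adjusted p = 0.225) at E16 against E14.

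Timp2, which inhibits metalloproteases and also bridges Mmp14 to the Mmp2 precursor, rose at E14 and again at E16 by probe set 160116_at. It was listed at 0 on all 3 E9.5 arrays, and read 481, 481 and 658 at E12, 999, 1080.4 and 1660.2 at E14, then 2429, 2451, 2779.7 and 3774 at E16, 2599, 2369.6 and 2403 at E18 and 2462, 1968 and 2643 at P0. The E9.5, E12, E14 and E16 arrays do not overlap, and the E16, E18 and P0 arrays do. A value of 0 can be a failed estimate of the index, which cannot be told from absence, and 62 probe sets are listed at 0 on all E9.5 arrays. No fold is given for E12 against E9.5, although the fit against the floor called it (adjusted p = 4.54e-08). The mean was 1246 ± 361 at E14, against 540.1 ± 102 at E12, 2.27-fold higher (adjusted p = 0.0036), and 2859 ± 631 at E16 (n = 4), 2.32-fold higher than at E14 (adjusted p = 0.00183, SD, n = 3 elsewhere). At P0 Timp2 averaged 2358 ± 349, 4.38-fold above E12 (log2 change 2.13, SE 0.21, adjusted p = 2.55e-06). Without E16 replicate 2, the array with high Dcn and Lum, the log2 change at E16 against E14 was 1.28 (adjusted p = 0.00342).

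The other tested Timp2 probe set, 93507_at, followed this weakly at most. It averaged 139 ± 19.5 at E9.5, 144 ± 11.3 at E12, 183 ± 34.0 at E14, then 224 ± 87.6 at E16, 224 ± 63.7 at E18 and 250.3 ± 101 at P0, above the floor at E9.5 where the first was listed at 0. Its log2 change was 0.06 (SE 0.32, adjusted p = 0.97) at E12 against E9.5 and 0.72 (SE 0.32, adjusted p = 0.136) at P0 against E12, where the arrays did not overlap. A further Timp2 probe set was too low to test, with a highest index of 38.6. The steps of Timp2 thus rest on 1 probe set. Timp1, the soluble inhibitor often induced by injury and cytokines, was read by 101464_at at 423 to 762 on all 19 arrays. It was called in no comparison, with a largest log2 change of 0.25 in size and a lowest adjusted p of 0.309.

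Over the same stages the summed fibroblast index given above was also higher at E12 than at E9.5 and higher again at E14 and E16. Most of that sum comes from Col1a2, Col3a1, Postn and, from E14, Col1a1, which read 40.9 to 85.6 at E12, 2716 to 4296 at E14 and 5527 to 8097 at E16. Of the 18 tested genes of the list, 5 were called higher and 1 (Twist1) lower at E12 against E9.5. A further step up was called for 2 at E14 and for 3 at E16, with 0 lower. Pdgfra read 121 to 150 at E9.5, 102 to 133 at E12 and 121 to 168 at E16. The part of fibroblasts in the rise of Timp2, Timp3 and Mmp14 was not tested.

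**Figure D3:**
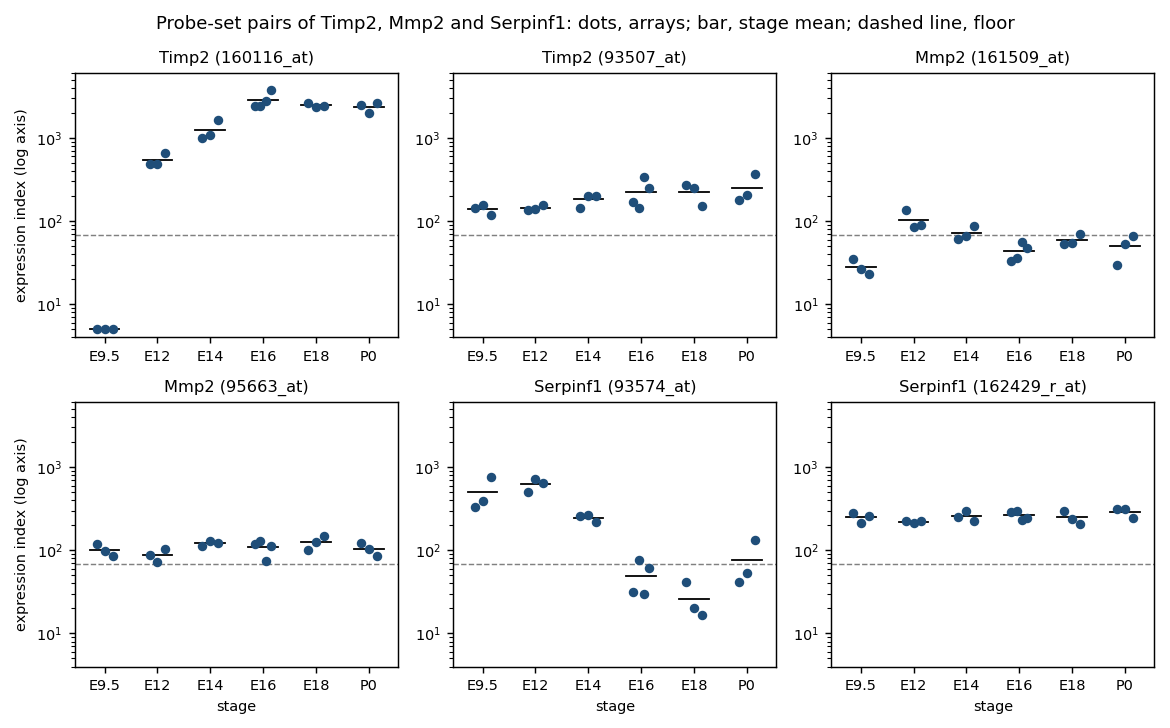
Expression index (log axis) on each array (dots) by stage for both tested probe sets of Timp2, Mmp2 and Serpinf1, with the stage mean (bar) and the floor of 68.5 (dashed line, values under 5 drawn at 5). In each pair 1 probe set was called in 2 or more comparisons and the other in 0.

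Among the ADAM genes, 15 probe sets of 13 genes were tested. At E12 against E9.5, 5 rose and 0 fell, and the median log2 change was 0.36, against 0.01 for all probe sets. Adam19 (meltrin beta), a protease that sheds neuregulin, had an index of 79.7, 105 and 86.4 at E9.5, 322, 386 and 421 at E12, 223, 217 and 292 at E14, then 333, 301, 572 and 444 at E16, 378, 329 and 226 at E18 and 111, 160.4 and 244 at P0. All nerve arrays were above the trunk arrays, and 2 of the 3 P0 arrays were below all other nerve arrays. Adam19 averaged 376 ± 50.3 at E12, against 90.5 ± 13.3 at E9.5 (SD, n = 3 each), 4.16-fold higher (log2 change 2.06, SE 0.28, adjusted p = 9.73e-05). It averaged 172 ± 67.6 at P0, 2.30-fold lower than at E12 (log2 change -1.20, SE 0.28, adjusted p = 0.00825). The P0 arrays had a higher GAPDH ratio than the E12 arrays, as given above, and with that ratio as a covariate the change was -0.73 (adjusted p = 0.093).

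Adam12 (meltrin alpha), a protease of mesenchyme and muscle precursors that cuts growth factor binding proteins, was above the floor at E12 alone. Its index was 33.1, 59.3 and 45.8 at E9.5, 117, 174 and 236 at E12, 62.0, 44.7 and 52.6 at E14, then 25.3, 23.6, 26.6 and 27.6 at E16, 23.1, 5.63 and 13.0 at E18 and 21.6, 25.4 and 7.38 at P0. Only the 3 E12 arrays pass the floor, so the gene entered the test through E12 alone. All other arrays hold the floor value, and the SE and p-values below hold no spread from those stages. The gene was at least 2.46-fold higher at E12 than at E9.5 (log2 change 1.30, SE 0.17, adjusted p = 6.91e-05) and at least 2.46-fold lower at E14 and at P0 than at E12 (adjusted p = 3.29e-04 and 7.72e-05). These bounds are equal because every other stage was set to the floor.

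Adam23 and Adam11 lack the catalytic residues and act as neuronal adhesion and receptor-binding proteins. Adam23 read 93.1, 116 and 89.6 at E9.5, 242, 250.1 and 252 at E12, 201, 228 and 237 at E14, then 191, 189, 277 and 299 at E16, 348, 294 and 326 at E18 and 251, 352 and 527 at P0. Every nerve array was above the trunk arrays, and the 3 E12 arrays lay within 10 units. It averaged 248 ± 5.17 at E12, against 99.4 ± 14.2 at E9.5, 2.51-fold higher (log2 change 1.33, SE 0.23, adjusted p = 7.7e-04). The later steps were not called, with a log2 change of 0.54 (SE 0.23, adjusted p = 0.129) at P0 against E12.

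Adam11 averaged 1256 ± 220 at E12, against 786 ± 164 at E9.5, 1.61-fold higher (log2 change 0.69, SE 0.19, adjusted p = 0.0223). That call was lost without E9.5 replicate 2 or E12 replicate 1 (log2 change 0.52 and 0.55, adjusted p = 0.126 and 0.127), with quantile normalization (0.53, adjusted p = 0.122) and with the GAPDH covariate (0.63, adjusted p = 0.0557). Adam2, the beta subunit of the sperm protein fertilin, read 87.8, 51.0 and 58.8 at E9.5, 127, 209.96 and 181 at E12, 112, 117 and 267 at E14, then 83.7, 61.2, 155 and 66.4 at E16, 139, 136 and 80.7 at E18 and 116, 79.0 and 150.5 at P0. The E12 arrays were above the E9.5 arrays, of which 2 were at the floor. It was at least 2.28-fold higher at E12 (log2 change 1.19, SE 0.37, adjusted p = 0.0416). The call was lost without any of E9.5 replicates 1, 2 and 3, E12 replicates 2 and 4, E16 replicate 1 or E18 replicate 2, at adjusted p-values of 0.0505 to 0.159, and with a floor at the 40th percentile the log2 change was 0.40 (adjusted p = 0.297).

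The widely used sheddases were called in no single comparison. Adam10, which sheds Notch, cadherins and the amyloid precursor, averaged 495 ± 116 at E9.5, 744 ± 118 at E12, 1144 ± 163 at E14, then 1365 ± 552 at E16, 1209 ± 267 at E18 and 855 ± 342 at P0 by probe set 97947_at. It varied over the 6 stages by the F-test (adjusted p = 0.00975) with no single comparison called, and the adjusted p of its other tested probe set was 0.573. Adam9 behaved likewise, at 643 ± 72.6 at E9.5, 899.9 ± 112 at E12 and 1133 ± 113 at E14 (F-test, adjusted p = 0.0127). Adam17, the sheddase of tumour necrosis factor, had an index of 50.8 to 124 on all arrays with a lowest adjusted p of 0.182, and Adam15 one of 392 to 771 with 0.295.

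Adamts1, an aggrecan- and versican-cutting protease, was the sole ADAMTS gene among the members. It averaged 12.1 ± 6.43 at E9.5, 109 ± 30.0 at E12, 126 ± 37.9 at E14, then 88.0 ± 35.6 at E16, 118 ± 28.2 at E18 and 23.4 ± 27.1 at P0. All 3 arrays at E9.5 and at P0 were below the floor and all 3 at E12, E14 and E18 above it. It varied over the 6 stages by the F-test (adjusted p = 0.0435), and no comparison was called. The bounds were at least 1.55-fold higher at E12 than at E9.5 (adjusted p = 0.12) and at least 1.69-fold lower at P0 than at E18 (adjusted p = 0.259).

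Of the plasminogen activation genes, 3 of 3 were tested and 0 called in any of the 6 comparisons. Plat, tissue plasminogen activator, which Schwann cells and neurons release, averaged 697 ± 69.0 at E9.5, 935 ± 225 at E12, 1294 ± 398 at E14, then 1488 ± 254 at E16, 970.3 ± 221 at E18 and 1327 ± 139 at P0. It varied over the 6 stages (F-test, adjusted p = 0.0105), with E9.5 lowest. Plaur, the urokinase receptor, varied as well (adjusted p = 0.0153). It averaged 281 ± 102 at E16, with 351, 301, 131 and 342 on its arrays, 115 ± 12.7 at E18 and 283 ± 140 at P0, with 444, 209 and 195. At P0 against E18 the arrays did not overlap, and the log2 change was 1.20 (SE 0.38, adjusted p = 0.243). Plau, urokinase itself, stayed between 41.6 and 100.4, near the floor.

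Of the serpins, 24 probe sets of 19 genes were tested. At E12 against E9.5, 3 rose: Serpina5, Serpini1 and Serpinb6a. Within the nerve, a fall was seen for Serpinf1 (pigment epithelium-derived factor), a serpin that does not inhibit proteases and that acts on neurons and vessels. By 93574_at it read 331, 389 and 771 at E9.5, 503, 724 and 646 at E12, 257, 264 and 217 at E14, then 31.2, 75.4, 30.2 and 61.9 at E16, 42.0, 19.999 and 16.8 at E18 and 41.2, 53.8 and 132 at P0. The E12, E14 and E16 arrays do not overlap, and after E14 only 1 array of E16 and 1 of P0 passed the floor. Serpinf1 averaged 246 ± 25.6 at E14, against 624 ± 112 at E12 (SD, n = 3 each), 2.52-fold lower (log2 change -1.33, SE 0.28, adjusted p = 0.0139). It averaged 49.7 ± 22.6 at E16 (n = 4), at least 3.49-fold below E14 (log2 change -1.80, SE 0.26, adjusted p = 7.63e-04), and 75.7 ± 49.2 at P0, at least 7.24-fold below E12 (log2 change -2.86, SE 0.28, adjusted p = 2.54e-06). That last change was -2.88 within lot 1 and -2.29 within lot 4, each from 1 array of either stage.

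The first of these falls was lost without E12 replicate 2 (adjusted p = 0.0884), without E14 replicate 3 (0.0734) and with a floor at the 10th percentile (0.186). E16 replicate 2, with the highest fibroblast marker sum (36391), had the highest Serpinf1 index of E16. Without it, the log2 change at E16 against E14 was -1.84 (adjusted p = 0.00223). The other Serpinf1 probe set, 162429_r_at, read 208 to 315 on all 19 arrays and was called nowhere, with a log2 change of 0.38 (SE 0.17, adjusted p = 0.152) at P0 against E12. The fall therefore rests on 1 of the 2 probe sets.

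**Figure D4:**
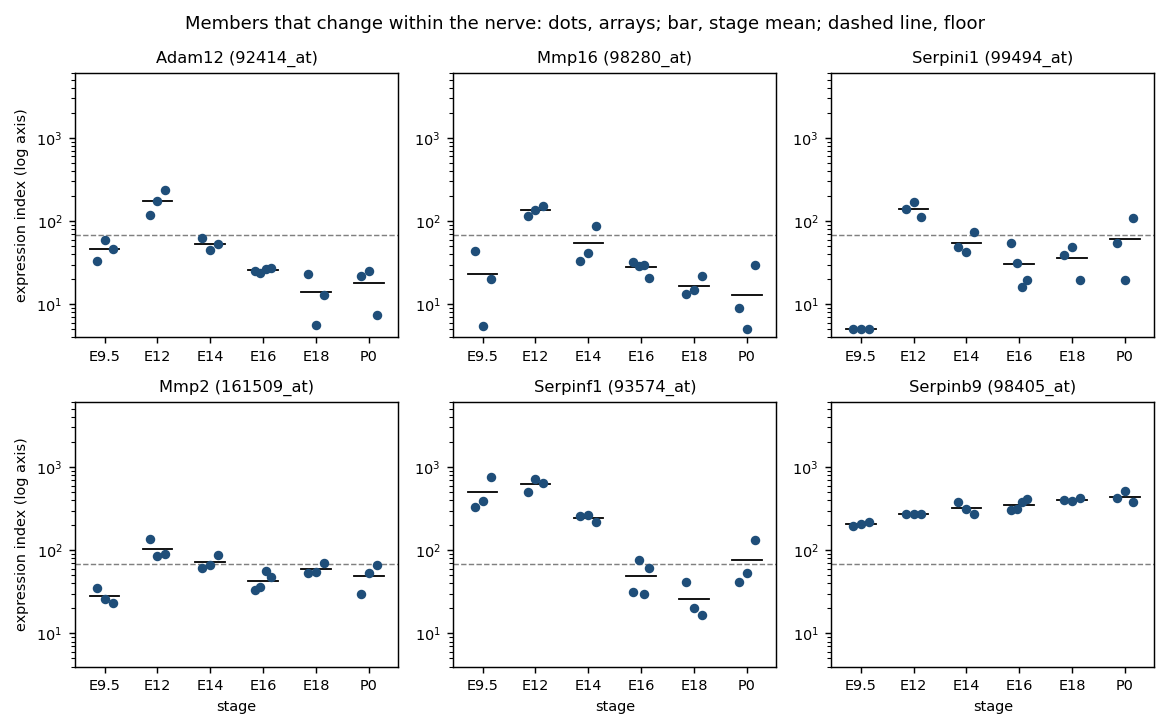
Expression index (log axis) on each array (dots) by stage for 6 probe sets that varied over the 5 nerve stages, with the stage mean (bar) and the floor of 68.5 (dashed line, values under 5 drawn at 5). Adam12, Mmp16 and Serpini1 lie above the floor on all 3 E12 arrays and mostly below it at other stages, Serpinf1 steps down to E16, and Serpinb9 has its highest mean, 441, at P0.

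Serpini1, neuroserpin, an inhibitor of tissue plasminogen activator in the nervous system, had a short peak. It read 4.80, 1.81 and 2.30 at E9.5, 138, 168 and 111 at E12, 48.9, 42.7 and 73.6 at E14, then 54.0, 31.2, 15.9 and 19.5 at E16, 39.5, 48.8 and 19.6 at E18 and 54.6, 19.7 and 108 at P0. The 3 E12 arrays are above all others. Beside them only an E14 array (73.6) and a P0 array (108) passed the floor. The gene thus entered the test through E12, and its p-values hold little spread from the other stages. The gene was at least 2.00-fold higher at E12 than at E9.5 (log2 change 1.00, SE 0.17, adjusted p = 5.91e-04). It was at least 1.96-fold lower at E14 than at E12 (adjusted p = 0.0036) and at least 1.72-fold lower at P0 (adjusted p = 0.00433). The fall at E14 was lost with a floor at the 10th percentile (adjusted p = 0.125) and with no floor (0.105). Within lot 4, with 1 array of either stage, the log2 change at P0 against E12 was -0.04. Plat, the protease it inhibits, was not called in any of these steps.

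Serpina5, the protein C inhibitor, read 95.5, 19.2 and 33.7 at E9.5, 162, 198 and 198 at E12, 196, 232 and 151 at E14, then 62.6, 161, 202 and 159 at E16, 249, 122 and 259 at E18 and 146, 270.4 and 285 at P0 by 101187_at. The E12 arrays all exceeded the E9.5 arrays, of which 2 were at the floor. It was at least 2.42-fold higher at E12 (log2 change 1.27, SE 0.37, adjusted p = 0.0297). This call was lost without any of E9.5 replicates 2 and 3 or E12 replicates 1, 2 and 4, at adjusted p-values of 0.0572 to 0.102. Its size depends on the floor, with a log2 change of 2.07 (adjusted p = 0.00609) for a floor at the 10th percentile and 0.52 (adjusted p = 0.257) for one at the 40th. The other Serpina5 probe set, 161259_f_at, was not called (log2 change -0.12, SE 0.22, adjusted p = 0.827).

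Serpinb6a, an intracellular inhibitor of serine proteases, averaged 469 ± 47.1 at E12, against 294 ± 32.0 at E9.5, 1.60-fold higher (log2 change 0.68, SE 0.22, adjusted p = 0.048). It missed the threshold without any 1 of the E9.5, E12, E14 and E18 arrays or of E16 replicates 1, 2 and 3, at adjusted p-values of 0.0544 to 0.169. Serpinb9, the inhibitor of granzyme B, had narrow groups, with means of 209 ± 11.9 at E9.5, 274 ± 1.48 at E12, 323 ± 55.2 at E14, then 355 ± 52.8 at E16, 406 ± 20.6 at E18 and 441 ± 70.4 at P0. It was 1.59-fold higher at P0 than at E12 (log2 change 0.67, SE 0.16, adjusted p = 0.0076), with no single step between neighbouring stages called.

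The alpha-1-antitrypsin genes Serpina1b, Serpina1c and Serpina1e are near-identical copies, and probe sets marked _f_at can bind several of them, so these values are not certain to belong to 1 gene. Probe set 101565_f_at (Serpina1c) averaged 266 ± 50.1 at P0, against 158 ± 15.3 at E12, 1.67-fold higher (adjusted p = 0.00826, and 0.0817 with the GAPDH covariate). Probe set 101574_f_at (Serpina1e) was 1.57-fold higher at P0 than at E12 (adjusted p = 0.0479), a call lost without E9.5 replicates 1 or 2, E12 replicates 2 or 4, E14 replicate 2, E16 replicates 1 or 2, E18 replicates 1 or 2 or P0 replicates 1 or 3, at adjusted p-values of 0.0531 to 0.195. It was also lost with the GAPDH covariate (log2 change 0.54, adjusted p = 0.204) and with a floor at the 40th percentile (0.12, adjusted p = 0.516). Without the lot 1 arrays of E16 and P0 the adjusted p was 0.206, and 9 of 29 alternatives kept the call. The probe set of Serpina1b and the other of Serpina1c were not called.

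Serpinh1, a collagen chaperone of the endoplasmic reticulum and no protease inhibitor, had a wide range. It averaged 1130.1 ± 343 at E9.5, 2189 ± 385 at E12, 2801 ± 1045 at E14, then 2689 ± 848 at E16, 2391 ± 320.5 at E18 and 1321 ± 911 at P0, where the arrays read 619.6, 992 and 2349.7. It varied over the 6 stages by the F-test (adjusted p = 0.0362), with no comparison called over all arrays. Its level without the third of those P0 arrays, replicate 4, is the case given above. Serpina3n, an acute-phase serpin that binds granzyme B in mouse, came closest of the rest, with 296, 321 and 126 at P0 and 154, 143 and 110.02 at E12, so that the groups overlapped (log2 change 0.77, SE 0.26, adjusted p = 0.0561). The plasma serpins Serpinc1 (antithrombin), Serpind1 (heparin cofactor), Serpinf2 (antiplasmin), Serping1 (complement C1 inhibitor), Serpina6 (corticosteroid carrier) and Serpina10 were called in no comparison.

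**Figure D5:**
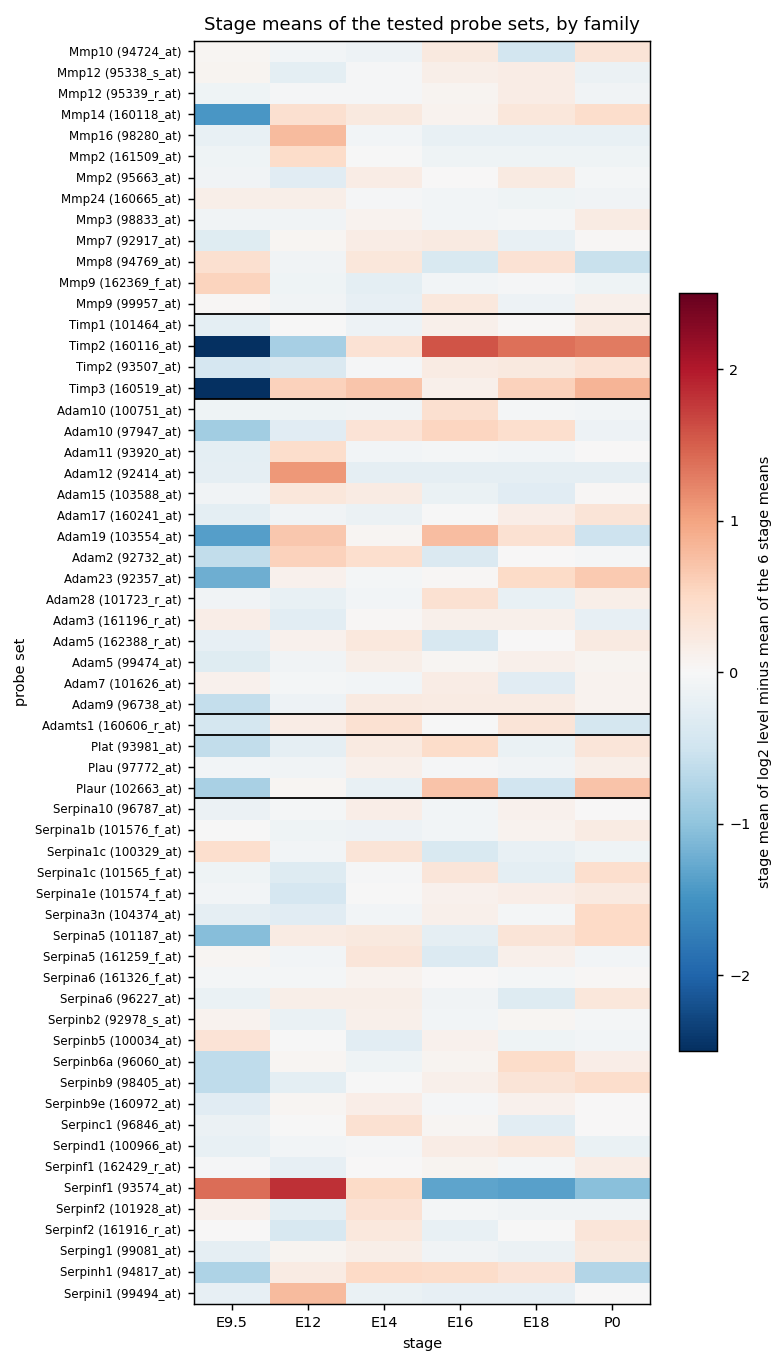
Stage mean of the floored log2 level of each of the 60 tested probe sets minus the mean of its 6 stage means (colour, red higher and blue lower, ends of the scale at 2.5 and -2.5), with families parted by lines. Timp2 160116_at, Timp3 160519_at and Serpinf1 93574_at carry the strongest colours, and most rows are pale.

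Of the 14 genes with more than 1 member probe set, 11 had 2 or more tested. In 5 of these (Timp2, Mmp2, Serpinf1, Serpina5 and Serpina1c) a probe set was called, and in 0 did another tested probe set share the call. The calls for Timp3, Mmp14, Mmp16, Adam12, Adam19, Adam23 and Serpini1 rest on single probe sets with no other to set beside them. Of the 20 probe sets that varied over 6 stages, 14 were also called in a comparison and 6 were not (Adam9, Adam10, Adamts1, Plat, Plaur and Serpinh1), while 3 were called in a comparison and missed the F-test.

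The proteins that the members act on or with were read from lists with 1 probe set a gene. Of these, Erbb3 and Cdh2 also stand in the glial marker list and Dcn and Fbln1 in the fibroblast list. Of 37 tested partners and substrates of the metalloproteases, 9 rose at E12 (24.3%, against 9.7% of all probe sets) and 0 fell (4.41% of all). Reck, a membrane-anchored metalloprotease inhibitor, was 7.46-fold higher (adjusted p = 7.6e-07), the growth factor precursor Hbegf 4.79-fold (adjusted p = 2.7e-04), the amyloid precursor App 4.38-fold (adjusted p = 4.86e-07), and the ADAM substrate Notch1 3.06-fold (adjusted p = 8.7e-04). Furin, the convertase that activates membrane-type metalloproteases and ADAM precursors, was 3.28-fold higher (adjusted p = 0.0365). Versican (Vcan), a proteoglycan that Adamts1 cuts, was 3.63-fold higher, dystroglycan (Dag1) 2.58-fold, Erbb3 2.05-fold and thrombospondin 2 (Thbs2) at least 2.31-fold (adjusted p = 0.00189, 0.00278, 0.0234 and 0.0394). At P0 against E12, 4 rose (10.8%, against 4.53% of all) and 5 fell (13.5%, near the 11.8% of all). Vcan was at least 73.5-fold lower (adjusted p = 5.21e-09), fibronectin (Fn1) 6.22-fold lower, Cdh2 4.99-fold lower and Reck 2.44-fold lower (adjusted p = 0.00246), while the syndecan Sdc4 was 10.04-fold and Dag1 2.48-fold higher (adjusted p = 3.43e-04 and 0.00392).

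Of 22 tested partners of the plasminogen activators and serpins, 5 rose at E12 (22.7%, against 9.7% of all probe sets) and 0 fell (4.41% of all). Anxa2 and S100a10, the 2 chains of a cell surface complex that binds plasminogen and its tissue activator, were higher, Anxa2 at least 13.98-fold and S100a10 8.35-fold (adjusted p = 3.96e-06 and 9.52e-06), and Anxa2 was 2.46-fold higher at P0 than at E12 (adjusted p = 0.0291). F3, tissue factor, was at least 3.05-fold higher (adjusted p = 0.0245). Thrombomodulin (Thbd), which turns thrombin towards protein C, rose 4.62-fold at E16 against E14 (adjusted p = 4.6e-07) and was at least 7.82-fold higher at P0 than at E12 (adjusted p = 6.32e-09). The thrombin receptor F2r was 5.11-fold lower at P0 than at E12 (adjusted p = 5.05e-06), and Igf2r, which also binds urokinase receptor, 4.17-fold lower (adjusted p = 8.67e-04). The median log2 change at E12 against E9.5 was 0.31 for the metalloprotease partners and 0.06 for the plasminogen and serpin partners, against 0.01 for all probe sets.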

How the data were processed

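RNA of sorted cells was amplified by 2 rounds of in vitro transcription and hybridized to Affymetrix mouse arrays, 1 per sample, per the labels' protocols. The deposited values are a model-based expression index, an intensity on a linear scale. Per the labels, the authors normalized arrays with the smoothing spline of dChip (version not given in the sources used here) and took probe sensitivities from 18 arrays, while the table holds 19. For 2 samples of E9.5 the labels give no protocol text.

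Index values lower than 68.5, the 25th percentile over the whole table, were raised to it before log2 was taken. The table holds 2363 values of 0. Testing needed at least 3 arrays above that floor and left out 66 control probe sets, so 10414 remained. A mean per stage was fitted to all 19 arrays (limma 3.58.1, lmFit and eBayes, R 4.3.3, 13 residual degrees of freedom), and p-values are 2-sided and Benjamini-Hochberg adjusted within each comparison. Standard errors are of the fitted log2 change. Folds come from fitted log2 values and need not equal ratios of printed means, and a fold with arrays at the floor on its low side is written as "at least". Levels of different probe sets were not compared. The number of arrays limits the precision.

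Members and gene lists were chosen with earlier results of these data known. Every array is given for members called with a log2 change of 1 or more in size, stage means or ranges for others, and a gene outside the members is named only if called with such a change or as a marker that moves with a result. For the lists, the probe set with the highest mean stands for a gene. All 59 member symbols were found in RefSeq. Alternatives were other floors, no floor (log2 of the index plus 50), no filter, quantile normalization, replicate or lot blocks, the GAPDH ratio as a covariate, array weights, and leaving out arrays. Protein sequences were not used here.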

Additional observations from a re-analysis of the deposited data

Results flagged for a closer look

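At E16, the 1 stage with 4 arrays, the gap between an extreme array and its nearest neighbour was set against the whole range of the group for each of the 60 tested probe sets. In 2 of the 60 it passed Dixon's critical value for 4 samples, which is no more than the about 1 in 20 groups that chance gives. For Adam10 by 100751_at the share was 0.844, with replicate 3 at 236 and the others at 82.6, 54.3 and 65.6. That probe set was called in no comparison. For Serpina3n by 104374_at it was 0.849, with replicate 4 at 165 and the others at 182, 184 and 185, so the low array is within 21 units of the rest.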

How the results depend on the processing

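Of the 30 called member changes, 19 kept their call under every alternative they could be run in (29 alternatives, 19 of which leave out 1 array), 11 lost it under 1 or more, and 0 reversed. Adam12, Mmp16, Serpini1 and Mmp2 161509_at dropped out of the test with the floor at the 40th percentile, so that setting could not end their calls. Leaving out an array did not redo the filter on low values. Calls of Adam12, Mmp16 and Serpini1 are among the 19, and for them a kept call is not independent of that filter. Leaving out 1 array, the count of members called was 8 to 14 at E12 against E9.5, 4 to 5 at E14 against E12, 2 to 3 at E16 against E14, 0 to 0 at E18 against E16, 0 to 6 at P0 against E18, 9 to 13 at P0 against E12, 6 to 13 by F over the nerve stages and 15 to 21 by F over all stages. Calls over all probe sets moved as well. In the same order they were 973 to 1751, 128 to 283, 107 to 230, 4 to 16, 2 to 715, 1064 to 2794, 867 to 2357 and 2283 to 3904. With the floor at the 40th percentile the count of members was 7 at E12 against E9.5, 2 at E14 against E12, 5 at P0 against E12 and 5 by F over the nerve stages, and with the floor at the 10th percentile 3 at E14 against E12. Over all probe sets the calls in these runs were 1342, 208, 1526, 1271 and 192. Array weights called 10 at E14 against E12, 7 at E16 against E14, 7 at E18 against E16, 6 at P0 against E18, 28 by F over the nerve stages and 36 by F over all stages. They raised the calls over all probe sets as well, to 1173, 912, 1153, 865, 5298 and 6461. The cause was not tested. The replicate block gave 10, 5, 2, 0, 0 and 10 members called in the 6 comparisons, 8 by F over the nerve stages and 21 by F over all stages. Over all probe sets it called 1498, 197, 245, 5, 40 and 1870 in the 6 comparisons, and 1651 and 3460 by F. It ended the calls of Serpina5, Adam2 and Serpinb6a at E12 against E9.5 (adjusted p = 0.0524, 0.0758 and 0.118) and of Serpina1e at P0 against E12 (0.0542). The lot block ended the same calls (adjusted p = 0.0528, 0.0721, 0.116 and 0.0569). Deviations of same-numbered arrays of different stages correlated little on average (mean r 0.02 over 38 pairs, from -0.38 to 0.71, 15 over 0.1). Arrays of the same lot gave a mean r of 0.04 over 39 pairs (16 over 0.1). Neither number was taken as a pairing in the main fit, although single pairs did deviate together. Signal near the floor limits Adam2, Adam12, Mmp16, Mmp2, Serpina5, Serpini1 and Plau, for which the size of a change depends on the floor.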

Other observations

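Proteases and inhibitors outside these families moved in the same window. Of 40 tested genes of a list of other extracellular proteases and inhibitors, 11 rose at E12 against E9.5 (27.5%, against 9.7% of all probe sets) and 0 fell (4.41% of all), with a median log2 change of 0.12, against 0.01 for all probe sets. Prss12, neurotrypsin, which cuts agrin, was at least 44.5-fold higher (adjusted p = 1.5e-09), and was 3.19-fold lower at E16 than at E14 (adjusted p = 0.00183) and 2.03-fold lower at P0 than at E12 (adjusted p = 0.0218). Bmp1, the procollagen C-proteinase, was 2.59-fold higher at E12 (adjusted p = 0.0135), and the cysteine protease inhibitor Cst3 2.44-fold higher (adjusted p = 0.00126). Prss23 was 3.60-fold, the carboxypeptidase Cpd 2.59-fold, Ctsb 2.12-fold, Ctsl 2.11-fold and Ctss at least 10.02-fold higher (adjusted p = 3.04e-05, 5.17e-05, 0.00246, 0.00171 and 4.26e-04).

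Later in the nerve Itih5, a heavy chain of the inter-alpha-trypsin inhibitor family, rose 5.87-fold at E14 against E12 (adjusted p = 3.6e-06) and 2.04-fold at E16 against E14 (adjusted p = 0.0157), and was 19.9-fold higher at P0 than at E12 (adjusted p = 1.81e-09). The peptide-processing enzyme Cpe was 4.50-fold higher at P0 than at E12 (adjusted p = 2.59e-05) and the serine protease Prss23 3.67-fold higher (adjusted p = 2.86e-05). The cathepsin Ctsl was 7.20-fold lower at P0 than at E12 (adjusted p = 8.14e-08) and the cathepsin Ctss, also a macrophage marker, at least 10.02-fold lower (adjusted p = 4.72e-04). The summed macrophage index, which includes Ctss itself, was 3268 to 3629 at P0, against 4389 to 7776 at E12. Of 18 tested macrophage genes, Ctss among them, 5 were called lower at P0 than at E12 and 0 higher. The part of macrophages in the fall of these cathepsins was not tested.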
